A study of Homo sapiens with 4 samples.

Results

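Integrins, laminins and the proteins of focal adhesions are the genes through which a cell holds on to its surroundings. The 35 genes described here are 10 integrin alpha chains, 7 integrin beta chains, 8 laminin chains and 10 proteins of the focal adhesion, and they were taken by name. A probe could be named for 33 of them, as for 17362 genes in all, and 30 of the 10908 genes with a probe above background were among them. These 30 genes were read by 41 of the 51 probes named for the 33.

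Integrins are receptors made of 1 alpha and 1 beta chain. They bind collagens, fibronectin, vitronectin or laminins outside the cell and, on the inside, recruit talin, kindlins and the adaptors that tie them to actin. Laminins are secreted trimers of an alpha, a beta and a gamma chain and form much of the basement membrane, the sheet of matrix that epithelial tumour cells cross when they invade. A focal adhesion is the plaque where integrins, adaptors and kinases such as focal adhesion kinase meet.

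The cells were MDA-231, a line of human breast cancer cells (MDA-MB-231 in full) that grows as spindle-shaped cells without estrogen receptor. One group of 2 arrays came from cells transfected with pCMV-TARBP2, a plasmid that expresses TARBP2, a double-stranded RNA-binding protein and partner of Dicer, from the CMV promoter. The other 2 arrays came from cells transfected with pCMV-GFP, a plasmid for green fluorescent protein behind the same promoter. Both groups went through the same TransIT transfection, and total RNA was extracted 48 hours later. The series text calls its control mock-transfected, whereas the sample labels, which are used here, give the GFP plasmid. The transfection was transient, and the share of cells that took up plasmid was not analysed here. The labels do not state that the arrays of a group were separate cultures, and the spread that the p-values measure may then be technical. In bulk RNA, fewer cells of a kind and less RNA per cell cannot be told apart.

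All values are log2 intensities of a probe after background correction and quantile normalization, and all changes are TARBP2 minus GFP. A gene is said to have risen or fallen on the TARBP2 arrays where the limma test of its brightest detected probe gave an adjusted p under 0.05 over all 22123 detected probes. Between 44.1% and 45.9% of probes were detected per array, and arrays of 1 group correlated at r = 0.996 in both groups, across probes that are not independent replicates. TARBP2 itself had levels of 15.11 and 15.12 on the TARBP2 arrays, against 7.26 and 6.97 on the GFP arrays, a 257-fold difference (adjusted p = 4.79e-05 by limma). For a dimmer TARBP2 probe the change of -0.22 missed the threshold (adjusted p = 0.0722). Of 7 genes listed for the line, vimentin was bright in both groups (14.42 on TARBP2 and 14.60 on GFP arrays, means of 2), and no CDKN2A probe was above background on any array. ESR1, the estrogen receptor, was not above background either.

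The promoters of 4 members are shown, the laminin chains and the integrin chains with the largest rise and fall among those with a promoter entry. LAMB1 rose most and LAMA4 fell most among the members, while ITGA2, a collagen receptor chain, rose and ITGA5, the fibronectin receptor chain, fell. An entry was found for 24 members, but not for ITGB4 and ITGB2, which fell more than ITGA5. Each sequence is the 250 bases upstream of the annotated start in RefSeq's GRCh38.p14, given 5′ to 3′ on the strand of the gene. Capitals mark GC boxes, searched as GGGCGG on both strands.
LAMB1 promoter: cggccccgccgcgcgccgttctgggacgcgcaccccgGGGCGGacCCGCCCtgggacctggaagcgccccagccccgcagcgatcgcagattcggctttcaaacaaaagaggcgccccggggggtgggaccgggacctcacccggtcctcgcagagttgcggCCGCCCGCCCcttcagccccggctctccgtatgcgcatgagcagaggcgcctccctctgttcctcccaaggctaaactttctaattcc
LAMA4 promoter: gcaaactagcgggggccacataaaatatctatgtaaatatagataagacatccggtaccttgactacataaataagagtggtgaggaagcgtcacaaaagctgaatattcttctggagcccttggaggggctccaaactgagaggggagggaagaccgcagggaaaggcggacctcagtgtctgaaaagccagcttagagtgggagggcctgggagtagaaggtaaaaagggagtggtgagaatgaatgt
ITGA2 promoter: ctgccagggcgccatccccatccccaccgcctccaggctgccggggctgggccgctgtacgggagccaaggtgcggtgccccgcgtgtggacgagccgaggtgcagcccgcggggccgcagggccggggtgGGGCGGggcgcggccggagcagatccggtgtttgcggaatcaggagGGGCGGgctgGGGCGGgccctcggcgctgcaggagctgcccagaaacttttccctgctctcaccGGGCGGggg
ITGA5 promoter: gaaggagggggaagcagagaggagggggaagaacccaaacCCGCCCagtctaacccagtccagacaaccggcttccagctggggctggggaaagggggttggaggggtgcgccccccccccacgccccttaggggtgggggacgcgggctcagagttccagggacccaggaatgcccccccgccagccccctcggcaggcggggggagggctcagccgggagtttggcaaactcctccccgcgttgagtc
The LAMB1 stretch is chr7:108003162-108003411 on the minus strand and the LAMA4 stretch is chr6:112254568-112254817 on the minus strand. The ITGA2 stretch is chr5:52989102-52989351 on the plus strand and the ITGA5 stretch is chr12:54419267-54419516 on the minus strand. LAMB1 and ITGA2, which rose, held 4 GC boxes each, and in LAMB1 a pair of these overlap. ITGA5 held 1 GC box and LAMA4 held 0, and 42.6% of 35116 annotated promoters hold at least 1 in the same length. The G and C share was 70.4% in LAMB1, 76.4% in ITGA2 and 70% in ITGA5, against 48.4% in LAMA4. Neither TGANTCA, the AP-1 motif, nor TATAAA, the TATA box, was found on either strand in any of the 4 stretches, and these occur in 6.57% and 10.7% of promoters. A match is a description of the letters in this window and not evidence of a bound site.

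Of the 30 members tested, 6 rose, 14 fell and 10 did not pass. The share that changed was 66.7%, where 48.1% of all genes tested did. Falls made up 46.7% of the members against 23.3% of all genes, and rises 20% against 24.8%. The median log2 change of the members was -0.22 and that of all genes was 0.00. At the ends of the range LAMB1 had a log2 change of 2.00 and LAMA4, not above background on the TARBP2 arrays, was at least 8.22-fold lower, and 5 members changed at least 2-fold. LAMA4 at that bound remained the lowest of the members, so their median of -0.22 could not change. Both TARBP2 arrays lay outside the range of both GFP arrays for 25 members (83.3%), close to the 79.7% of all genes that did so.

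**Figure D1:**
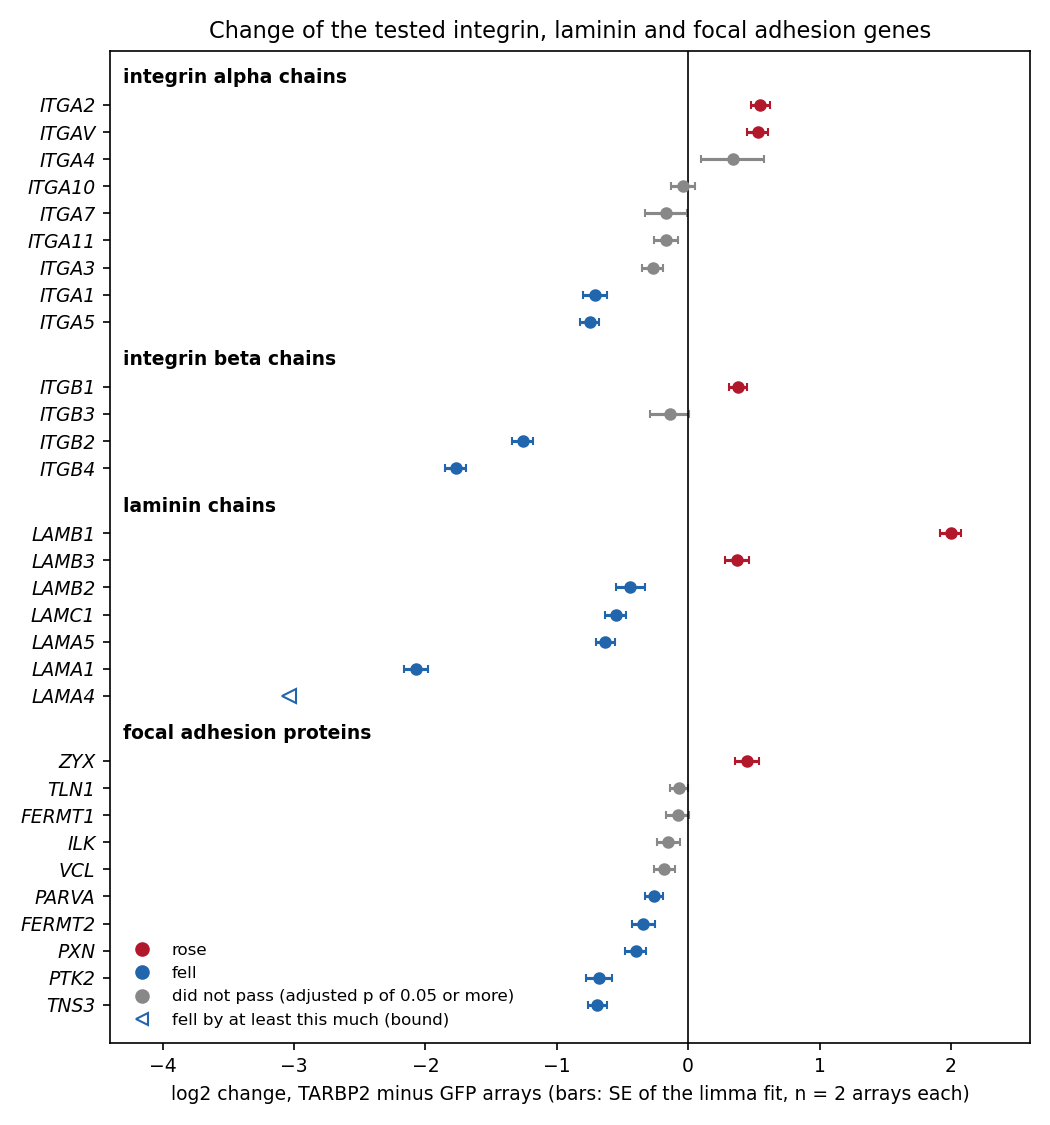
Log2 change of the 30 tested members, TARBP2 minus GFP arrays (x axis, log2), by role down the page, each by its brightest probe. Points are the limma estimates and bars the SE, with n = 2 arrays per group, the open triangle is the bound for LAMA4, and the colour gives rises, falls and genes that did not pass. All 7 laminin chains changed, from at least 8.22-fold lower for LAMA4 to a log2 change of 2.00 for LAMB1, while 5 of 9 alpha chains and 4 of 10 focal adhesion proteins did not pass. Of all genes tested, 48.1% changed.

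The calls rest on few arrays. Of the 20 members that changed, 11 still passed in each of the 4 fits that left out 1 array, LAMB1 and ITGA2 among the rises and LAMA4, LAMA1, LAMA5, ITGB4, ITGB2, ITGA5, ITGA1, TNS3 and PTK2 among the falls. The other 9 were lost in at least 1 of these fits and are named as such at their values. All genes were also called less often in these fits, at between 25.3% and 30.9%.

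Integrin alpha chains, which choose the ligand, showed 2 rises, 2 falls and 5 genes that did not pass among 9 tested, with a median change of -0.17. The 44.4% that changed is near the 48.1% of all genes. ITGA2, which with ITGB1 forms a receptor for collagen, had levels of 9.37 and 9.40 on the TARBP2 arrays, against 8.85 and 8.83 on the GFP arrays. It rose 1.46-fold (log2 change 0.55, SE 0.07, adjusted p = 0.00606 by limma). ITGA1, the alpha chain of another collagen receptor, was dimmer, at 6.90 and 7.03 on the TARBP2 arrays, against 7.71 and 7.63 on the GFP arrays. It fell by 0.71 on the log2 scale (SE 0.09, adjusted p = 0.00496 by limma). Chains of 2 collagen receptors thus differed in direction, with groups that did not overlap in either.

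The receptors for fibronectin and related matrix proteins also included both directions. ITGA5, the alpha chain of the classical fibronectin receptor, had levels of 11.11 and 11.14 on the TARBP2 arrays, against 11.86 and 11.90 on the GFP arrays. It fell by 0.75 on the log2 scale (SE 0.07, adjusted p = 0.00273 by limma), the larger of the 2 alpha chain falls. ITGAV, whose receptors bind vitronectin and fibronectin, had levels of 10.93 and 10.95 on the TARBP2 arrays, against 10.35 and 10.47 on the GFP arrays. It rose 1.44-fold (log2 change 0.53, SE 0.08, adjusted p = 0.00884 by limma), and this call was lost without either TARBP2 array (adjusted p up to 0.0549). The 50 genes around ITGAV on chromosome 2 had a median change of 0.26. With such medians removed, ITGAV had a change of 0.26 (adjusted p = 0.0384 by limma). ITGA4, best known as a leukocyte receptor for fibronectin and VCAM1, did not pass and its groups overlapped, at 6.43 and 6.88 on the TARBP2 arrays, against 6.60 and 6.04 on the GFP arrays.

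Alpha chains known mainly as laminin receptors gave no call. ITGA3, the alpha chain of a laminin receptor of epithelial cells, had a change of -0.27 (SE 0.08, adjusted p = 0.0524 by limma), with levels of 12.70 and 12.81 on the TARBP2 arrays, against 13.04 and 13.01 on the GFP arrays. These groups did not overlap, but a dimmer ITGA3 probe had a change of 0.09 (adjusted p = 0.771). ITGA7, a laminin receptor chain of muscle, had a change of -0.17 with a 95% interval of -0.59 to 0.24. For ITGA6, the alpha chain that joins ITGB4 in hemidesmosomes, no probe could be named, and the authors' deposited table gives a log ratio of -0.23 and the class of down-regulated. The collagen receptor chains ITGA10 and ITGA11 did not pass, with intervals of -0.28 to 0.19 and -0.42 to 0.07.

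Among 4 integrin beta chains tested, 1 rose, 2 fell and 1 did not pass, where 48.1% of all genes changed. ITGB1, the common partner of most alpha chains above, had levels of 14.25 and 14.20 on the TARBP2 arrays, against 13.86 and 13.84 on the GFP arrays. It rose 1.30-fold (log2 change 0.38, SE 0.07, adjusted p = 0.0166 by limma). A dimmer probe of ITGB1 gave 12.42 and 12.57 on the TARBP2 arrays, against 12.00 and 11.97 on the GFP arrays, a change of 0.51. Both probes were higher on both TARBP2 arrays, but the call of the brighter was lost in each of the 4 fits without 1 array (adjusted p 0.0624 to 0.0785). The median change of the 50 genes around ITGB1 on chromosome 10 was 0.37, and with such window medians removed ITGB1 had a change of 0.01 (adjusted p = 0.907).

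ITGB4, the long-tailed beta chain that anchors epithelial cells to laminin in hemidesmosomes, had levels of 7.11 and 7.20 on the TARBP2 arrays, against 8.89 and 8.96 on the GFP arrays. It was 3.41-fold lower (log2 change -1.77, SE 0.08, adjusted p = 0.000414 by limma), the largest fall among integrin chains. The change was -1.48 on the authors' quantile-normalized intensities, -1.48 without background correction and -1.56 with an offset of 50. A dimmer ITGB4 probe also fell, at 6.24 and 6.01 on the TARBP2 arrays, against 7.69 and 7.42 on the GFP arrays (log2 change -1.43). Plectin (PLEC), which links ITGB4 to intermediate filaments, fell by 0.93 on the log2 scale (adjusted p = 0.00186), with levels of 9.11 and 9.13 on the TARBP2 arrays, against 10.11 and 10.00 on the GFP arrays. COL17A1, another hemidesmosome protein, went the other way with a rise of 1.00 (adjusted p = 0.00523), and was detected on 1 GFP array. Its levels were 5.97 and 6.01 on the TARBP2 arrays, against 4.83 and 5.15 on the GFP arrays, which is close to background. The other COL17A1 probe, named together with this one, was not above background on any array. The named hemidesmosome genes therefore differed in direction, but the opposite sign rests on that 1 dim probe.

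ITGB2, the beta chain of the leukocyte integrins, had levels of 9.46 and 9.49 on the TARBP2 arrays, against 10.70 and 10.78 on the GFP arrays. It was 2.40-fold lower (log2 change -1.26, SE 0.08, adjusted p = 0.000869 by limma), and a second probe had a change of -1.40. Its leukocyte alpha partners ITGAL, ITGAM and ITGAD were not above background on any array. Of 8 leukocyte marker genes with a probe only 2 were tested, LCP1 and CD14, and both rose (log2 changes of 3.21 and 1.96). PTPRC, CD3E and CD79A of the same list were not above background on any array. The summed linear level of the list was 4505 and 4788 on the TARBP2 arrays, against 782 and 699 on the GFP arrays. The leukocyte list thus moved opposite to ITGB2, and its part in the ITGB2 value was not tested.

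ITGB3, the beta chain of a vitronectin receptor, did not pass and its groups overlapped, at 5.72 and 5.77 on the TARBP2 arrays, against 6.08 and 5.69 on the GFP arrays. ITGB6 and ITGB8, partners of ITGAV in receptors that activate latent TGF-beta, were not above background on any array. No probe could be named for ITGB5, a further partner of ITGAV, and its log ratio in the authors' deposited table is 0.06. Of the ITGAV partners tested, ITGB1 rose and ITGB3 did not pass.

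Every one of the 7 laminin chains tested changed, where 48.1% of all genes did, 2 up and 5 down, with a median of -0.55. LAMB1, a beta chain found in many laminins, had levels of 10.68 and 10.70 on the TARBP2 arrays, against 8.72 and 8.66 on the GFP arrays. It rose by 2.00 on the log2 scale (SE 0.08, adjusted p = 0.000257 by limma), the largest rise among the members. A second LAMB1 probe gave 10.31 and 10.32 on the TARBP2 arrays, against 8.32 and 8.27 on the GFP arrays, a change of 2.02. The 50 genes around LAMB1 on chromosome 7 had a median change of 0.48, so most of its rise lay beyond that of its neighbours.

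LAMA4, the alpha chain of laminins of vessel walls and mesenchymal tissue, was the largest fall. Its levels were 4.64 and 4.50 on the TARBP2 arrays, where it was not above background, and 8.05 and 8.11 on the GFP arrays. The brighter probe was at least 8.22-fold lower (adjusted p = 0.0001 by limma), and a dimmer LAMA4 probe, also not above background on either TARBP2 array, was at least 2.08-fold lower. The size depends on the background correction: the measured log2 change of the brighter probe was -2.42 on the authors' quantile-normalized intensities, -2.34 without background correction and -2.40 with an offset of 50, and it passed in each. The bounds set the GFP mean against the lowest detected level on the TARBP2 arrays, or the probe's own level where that was higher. PECAM1, the only endothelial marker tested of 5 with a probe, had a change of -0.16 (adjusted p = 0.243), and the other 4 were not above background on enough arrays to be tested.

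LAMA1, the alpha chain of the first laminin described, from a mouse tumour matrix, had levels of 6.60 and 6.60 on the TARBP2 arrays, against 8.58 and 8.75 on the GFP arrays. It was 4.19-fold lower (log2 change -2.07, SE 0.09, adjusted p = 0.000399 by limma), and a second probe had a change of -1.17. The change of the brighter probe was -1.65 on the authors' quantile-normalized intensities, -1.64 without background correction and -1.75 with an offset of 50. It passed in each. LAMA5, the most widely expressed laminin alpha chain of adult epithelia, fell by 0.63 on the log2 scale, at 12.38 and 12.36 on the TARBP2 arrays, against 12.98 and 13.03 on the GFP arrays (adjusted p = 0.00436 by limma). Thus each of the 3 alpha chains tested fell, by amounts that differed widely. For LAMA3, the alpha chain of the laminin that ITGB4 binds, the named probe was not above background on any array, while another accession of LAMA3 has a log ratio of 0.27 in the authors' deposited table and no named probe.

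The remaining chains changed less and their calls were less firm. LAMC1, the gamma chain shared by most laminins, had a change of -0.55 (adjusted p = 0.00784 by limma), with 12.12 and 12.14 on the TARBP2 arrays, against 12.63 and 12.74 on the GFP arrays, and was lost without TARBP2 replicate 1 (adjusted p = 0.0518). LAMB2, a beta chain of the neuromuscular junction and the kidney filter, had a change of -0.44, with 9.29 and 9.46 on the TARBP2 arrays, against 9.70 and 9.92 on the GFP arrays, and passed in 1 of the 4 fits without 1 array. LAMB3, the beta chain of the laminin under skin, had 10.71 and 10.86 on the TARBP2 arrays, against 10.39 and 10.43 on the GFP arrays. Its rise was 1.29-fold (adjusted p = 0.0268 by limma), and it passed in 0 of the 4 such fits. The other probes named for LAMB3, among them the one named together with this probe, were not above background on any array. LAMB1 and LAMC1, which assemble with each other, thus had changes of opposite sign.

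**Figure D2:**
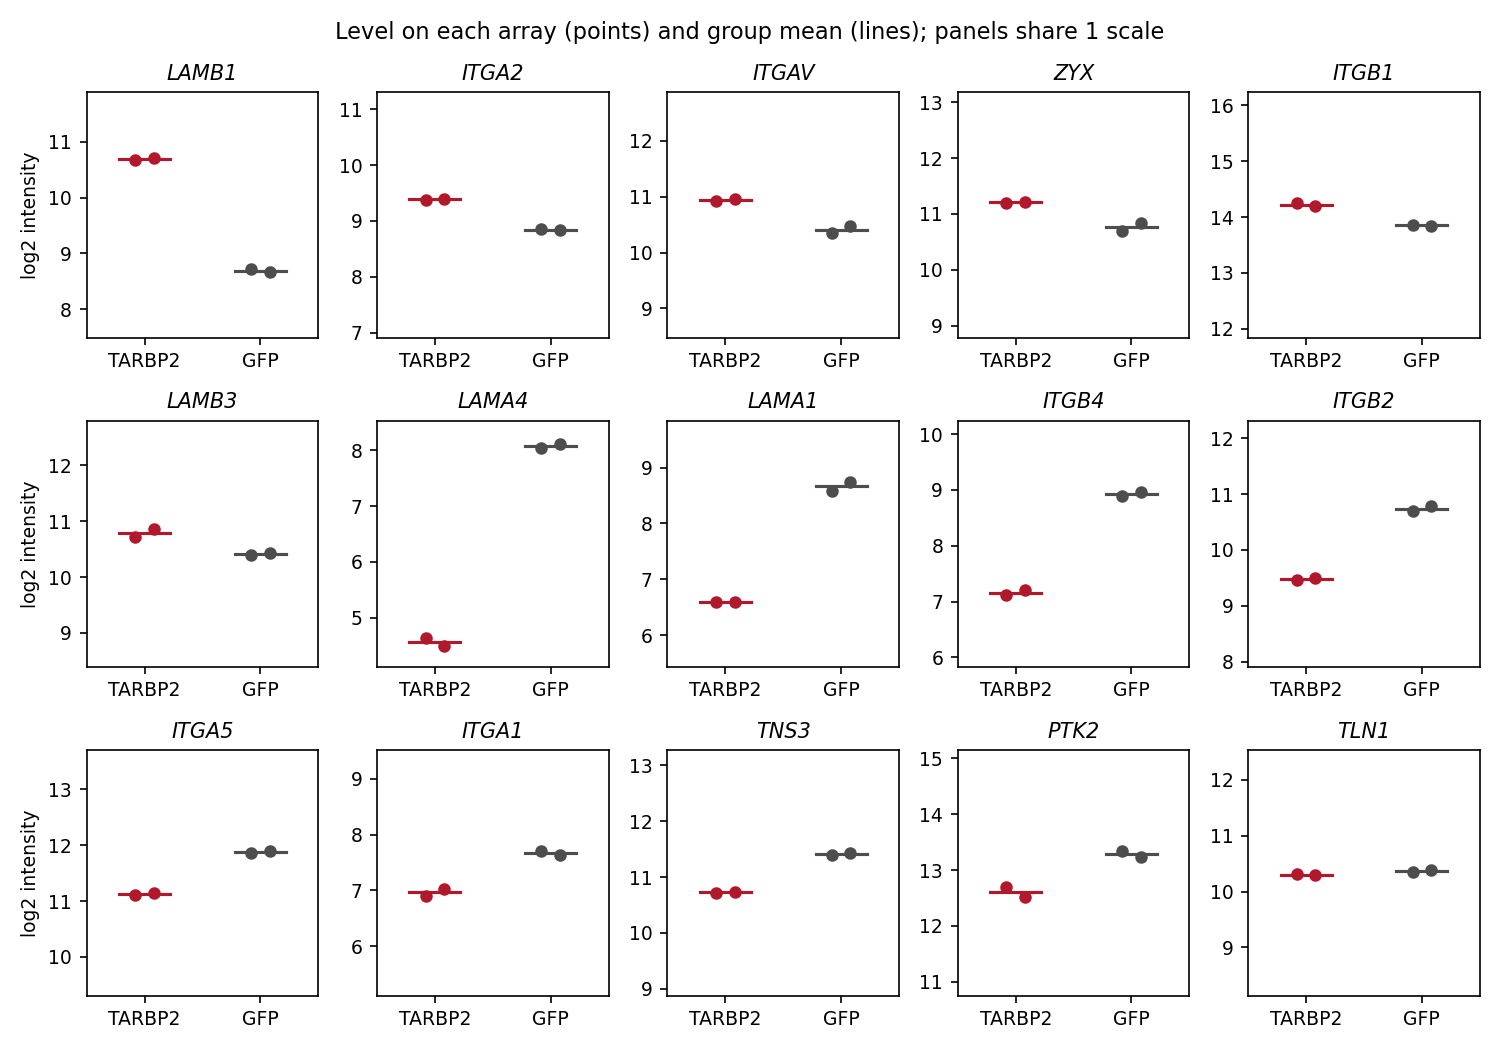
Log2 intensity (y axis) on each array for the 15 members named by rule, TARBP2 left and GFP right in each panel. Points are single arrays, lines are group means (n = 2), and panels cover equal spans placed at different levels. LAMB1 lies near 10.7 on the TARBP2 arrays, against 8.72 and 8.66 on the GFP arrays, and TLN1 shows the smallest separation.

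Inside the cell, 1 of 10 focal adhesion proteins rose, 5 fell and 4 did not pass, with a median change of -0.22. Thus 60% changed, beside 48.1% of all genes. PTK2, focal adhesion kinase, had levels of 12.70 and 12.52 on the TARBP2 arrays, against 13.34 and 13.24 on the GFP arrays. It was 1.60-fold lower (log2 change -0.68, SE 0.10, adjusted p = 0.00744 by limma). A second PTK2 probe had a change of -0.30 and missed the threshold (adjusted p = 0.251). TNS3, a tensin that binds integrin tails and actin, had levels of 10.72 and 10.73 on the TARBP2 arrays, against 11.40 and 11.43 on the GFP arrays, and was 1.61-fold lower (adjusted p = 0.00337 by limma). PXN, the scaffold paxillin, had a change of -0.40 (adjusted p = 0.019), with 9.68 and 9.72 on the TARBP2 arrays, against 10.04 and 10.16 on the GFP arrays, and it passed in 1 of the 4 fits without 1 array.

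The proteins that switch integrins on were split. TLN1, talin, which binds the beta tail and activates it, had 10.31 and 10.29 on the TARBP2 arrays, against 10.35 and 10.39 on the GFP arrays, a change of -0.07 with a 95% interval of -0.26 to 0.12. FERMT2, the kindlin of adherent mesenchymal cells, had a change of -0.34 (adjusted p = 0.0329 by limma), with 11.62 and 11.60 on the TARBP2 arrays, against 12.02 and 11.88 on the GFP arrays, and passed in 0 of the 4 fits without 1 array. The epithelial kindlin FERMT1 had a change of -0.08 and groups that overlapped (adjusted p = 0.53). FERMT3, the kindlin of blood cells and no member of the list, rose by 1.49 on the log2 scale (adjusted p = 0.000525), with 7.27 and 7.33 on the TARBP2 arrays, against 5.81 and 5.80 on the GFP arrays. Kindlin genes thus included a rise, a fall and a gene that did not pass.

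ILK, the pseudokinase that bridges integrins to the parvins, had a change of -0.15 with an interval of -0.38 to 0.07, and a second probe had -0.11. PARVA, the parvin that joins ILK to actin, had a change of -0.26 (adjusted p = 0.0451 by limma), with 9.85 and 9.91 on the TARBP2 arrays, against 10.15 and 10.13 on the GFP arrays. A dimmer PARVA probe had a change of -0.54 (adjusted p = 0.00859), but the call of the brighter was lost in all 4 fits without 1 array, and with the replicate number as a block (adjusted p = 0.0806). LIMS2, a PINCH protein of the same complex, fell by 1.05 on the log2 scale (adjusted p = 0.0021). VCL, vinculin, which ties talin to actin under tension, had a change of -0.18 and did not pass (interval of -0.39 to 0.02). With window medians removed, VCL had a change of -0.42 and passed (adjusted p = 0.0072 by limma).

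ZYX, zyxin, which gathers at adhesions and stress fibres under force, was the only focal adhesion protein of the 10 that rose. It had 11.20 and 11.22 on the TARBP2 arrays, against 10.69 and 10.83 on the GFP arrays, a change of 0.45 (SE 0.09, adjusted p = 0.0154 by limma). A dimmer ZYX probe had 9.43 and 9.29 on the TARBP2 arrays, against 8.79 and 8.69 on the GFP arrays, a change of 0.62. ZYX lies on chromosome 7 among 50 genes with a median change of 0.45. With window medians removed its change was 0.00 (adjusted p = 0.979), and it passed in 1 of the 4 fits without 1 array.

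Of the 11 members with more than 1 tested probe, 8 had probes that all passed in the same direction and 0 had probes that passed in opposite directions. Over all 41 tested probes of the members, 9 rose and 19 fell, where 40.3% of all detected probes changed. The remaining genes with more than 1 tested probe were ILK, ITGA3 and PTK2. For ITGB2, LAMA1, LAMA4, LAMB1, ZYX and PARVA both probes were named together, because the mean of their group differences met the authors' log ratio. Their agreement is therefore not separate evidence. For LAMA1 the dimmer probe had a change of -1.17, against -2.07 for the brighter, and for LAMA4 both probes give only bounds. Probe sequences were not used, so which transcripts each probe reads was not tested.

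**Figure D3:**
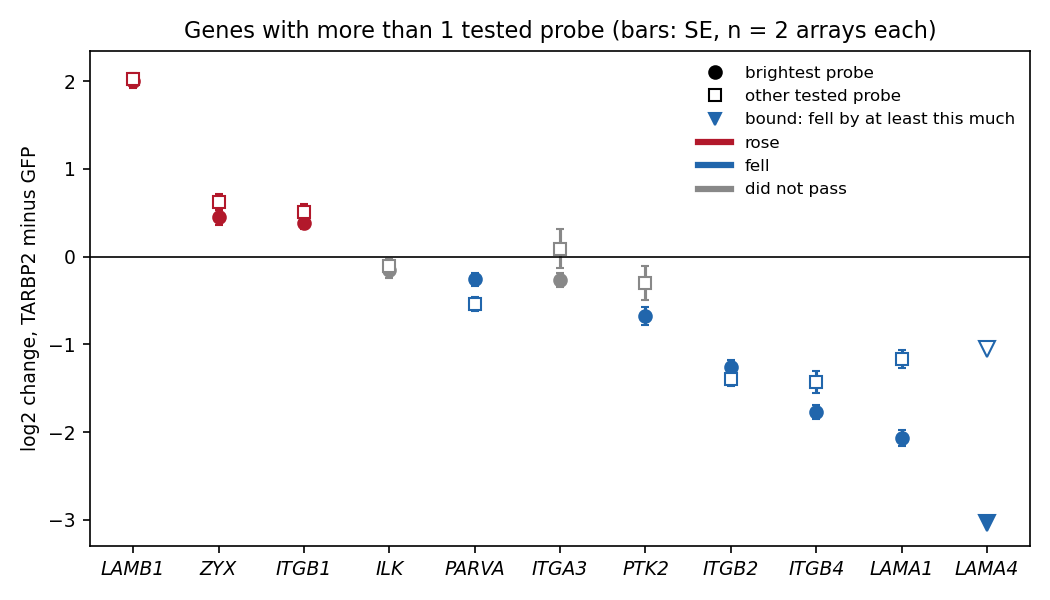
Log2 change, TARBP2 minus GFP (y axis), of each tested probe for the 11 members with more than 1. Circles are the brightest probe, open squares the other probe and bars the SE (n = 2 arrays per group). Triangles are bounds for LAMA4, whose probes were at least 8.22-fold and 2.08-fold lower, while LAMB1's probes lie at 2.00 and 2.02.

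The authors' deposited table places 16 of 45 accessions of the members in its class of down-regulated transcripts (8.44% of all 39747 accessions are in that class). The 8.44% also covers accessions of probes not above background, which are fewer among the members, so the 2 shares are not alike. Among genes tested here, falls made up 46.7% of the members against 23.3% of all genes. The 16 accessions belong to 15 members, which are the 14 that fell here and ITGA6. The table was made from the same arrays and is no separate evidence.

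Genes of the same pathway outside the 35 were followed as 6 further lists. Of 83 tested, 17 rose, 32 fell and 34 did not pass, with a median change of -0.14. The share that rose was 20.5% and the share that fell 38.6%, beside 24.8% and 23.3% of all genes. Among other integrin and laminin chains 0 of 5 rose and 3 fell. The falls included ITGB7, a partner of ITGA4 in lymphocytes, with a change of -0.68, and LAMA2, the laminin alpha chain of muscle, which was not above background on the TARBP2 arrays and was at least 1.41-fold lower.

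Other adhesion adaptors counted 5 rises, 8 falls and 7 genes that did not pass among 20, so that 65% changed beside 48.1% of all genes. Besides FERMT3 and LIMS2, TNS4, a short tensin without an actin-binding part, fell by 2.16 on the log2 scale (adjusted p = 0.000507), with 5.03 and 5.20 on the TARBP2 arrays, 1 of which detected it, and 7.19 and 7.36 on the GFP arrays. LPXN, leupaxin, a relative of paxillin, fell by 1.40 on the log2 scale (adjusted p = 0.000574), with 8.81 and 8.78 on the TARBP2 arrays, against 10.20 and 10.19 on the GFP arrays. These falls had larger estimates than those of their relatives TNS3 and PXN, and the differences were not tested.

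Adhesion kinases and signalling genes counted 4 rises and 4 falls among 17, a share of 47.1% that is near the 48.1% of all genes. SRC, the kinase that works with PTK2 on paxillin, rose by 1.60 on the log2 scale (adjusted p = 0.000714), with 7.62 and 7.78 on the TARBP2 arrays, against 6.06 and 6.14 on the GFP arrays. PTK2B, the close relative of PTK2, rose by 1.28 on the log2 scale (adjusted p = 0.00122), at 7.34 and 7.37 on the TARBP2 arrays, against 5.99 and 6.16 on the GFP arrays. FYN, another Src-family kinase, fell by 0.89 on the log2 scale, and PAK2, a kinase driven by RAC1 and CDC42, fell by 1.35. PTK2 and PTK2B thus had changes of opposite sign, as did SRC and FYN.

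Actin linkers counted 4 rises and 6 falls among 16 (62.5% changed, beside 48.1% of all genes). FLNC, a filamin that crosslinks actin, rose by 1.02 on the log2 scale (adjusted p = 0.00139). MYL9, a myosin light chain, rose by 1.09, and EVL, an actin polymerisation factor, by 1.25.

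Matrix ligands counted 1 rise and 4 falls among 11, a share of 45.5% that is again near the 48.1% of all genes. NTN4, a netrin that binds laminin gamma chains, fell by 1.95 on the log2 scale (adjusted p = 0.000263), with 8.68 and 8.73 on the TARBP2 arrays, against 10.66 and 10.65 on the GFP arrays. COL4A2, a collagen of the basement membrane, fell by 0.59 and CCN2, an integrin-binding matricellular protein, by 0.40. THBS1, thrombospondin, rose by 0.55 (adjusted p = 0.00774). Membrane partners counted 3 rises and 7 falls among 14 (71.4% changed), where CD82, a tetraspanin that associates with integrins, rose by 1.52 and CDCP1, a surface substrate of SRC, by 1.37.

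**Figure D4:**
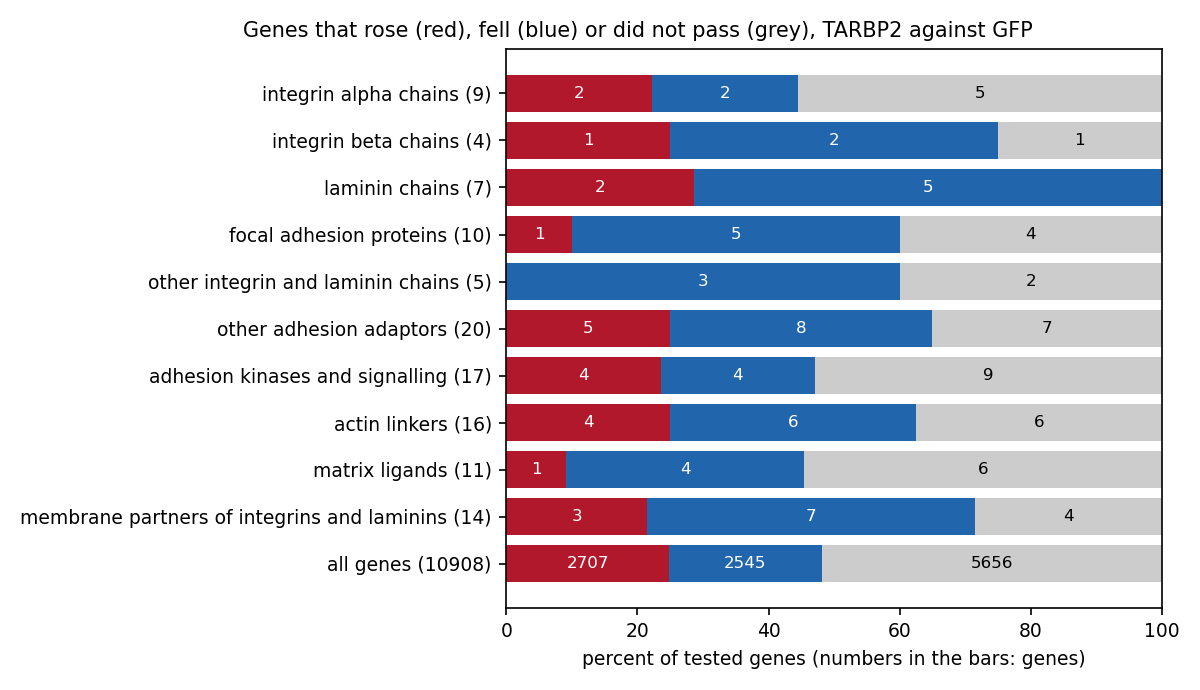
Percent of tested genes (x axis) that rose (red), fell (blue) or did not pass (grey), TARBP2 against GFP, for the 4 groups of members, the 6 other adhesion lists and all genes. Numbers in the bars are genes and those in brackets the genes tested. Laminin chains show 2 rises and 5 falls, and all genes show 2707 rises and 2545 falls.

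Among 6 genes of the line tested, 1 rose, 2 fell and 3 did not pass, a share of 50% that is near the 48.1% of all genes. S100A4, a calcium-binding protein tied to motility, rose by 2.32 on the log2 scale. Of 5 luminal epithelial genes tested, 1 rose, 3 fell and 1 did not pass. KRT8 did not pass, at 11.14 and 11.10 on the TARBP2 arrays, against 11.19 and 11.24 on the GFP arrays, while KRT19 fell by 1.25 on the log2 scale. The other luminal calls rest on probes at background in 1 group and give only bounds. CDH1 was at least 1.14-fold lower and KRT18 at least 1.06-fold lower, neither above background on the TARBP2 arrays, and GATA3, at background on the GFP arrays, at least 1.13-fold higher. The part of these markers in the integrin and laminin values was not tested.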

How the data were processed

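Total RNA of 4 MDA-231 samples was read on Illumina BeadChips. Per the file headers, the deposited non-normalized table holds a linear intensity and a detection p-value for each of 47323 probes. The authors' quantile-normalized intensities are a further table, and the submitters' processing notes name lumi without a version. A final table of the authors gives a log ratio, treated as deposited log2 values though its scale is a scaled inverse hyperbolic sine that compresses low levels, and a down-regulated or background class, for 39747 accessions.

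Probes and accessions are not paired in these tables. Ties were made by value: the deposited log ratio had to equal, to within 1e-09, the difference of group means of 1 such fitted transform of a probe's quantile-normalized intensities, which held for 33114 accessions (14 by chance with values moved). A further 2794 were tied to a pair of probes (190 by chance) and 3839 were not tied. In simulated data 99.86% of single ties and 2525 of 2541 accepted pairs were right. RefSeq accessions gave a symbol to 22411 accessions and 1 symbol to each of 21898 probes. Of the members tested, 9 were read through a pair, and 44.8% of genes on accessions tied to 1 probe were called. The 9 include LAMB1, LAMA4, LAMA1, ITGB4 and ITGB2, the 5 members that changed at least 2-fold. The chance pairs expected for each of these 5 were between 0.001 and 0.013. With single ties only, ITGB4 had a log2 change of -1.43 and the others of these 5 were not tested.

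Intensities were processed with neqc (normexp from detection p-values, offset 16, quantile normalization, log2) in limma 3.58.1 under R 4.3.3, with Python 3.11.15 and SciPy 1.17.1. Probes detected (p under 0.05) on 2 or more of 4 arrays were fitted with lmFit and eBayes (2-sided, 2 residual and 2.81 prior degrees of freedom), with Benjamini-Hochberg adjustment over 22123 probes. A gene is represented by its brightest detected probe. Errors are standard errors (SE) of the fit with n = 2 arrays per group, intervals are 95%, and the number of arrays limits the precision. The fit was tested on simulated data.

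Members and lists were chosen with earlier results of these data known. Values per array are given for the up to 8 largest rises and falls without overlap and for ITGB1, PTK2 and TLN1, and in each other list the up to 4 genes of smallest p are named. The other members, and the array values of other genes, were named after their values were seen. A few of the genes so named are not reported here. Replicate numbers were not used to pair the samples in the main fit. Deviations of TARBP2 replicate 1 and GFP replicate 1 from their group means correlated at 0.00616 across probes. With 2 arrays per group the second pair mirrors the first, so this value cannot decide whether the samples were paired.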

Additional observations from a re-analysis of the deposited data

How the results depend on the processing

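The 14 alternatives gave 410 values for the members, of which 359 kept direction and side of the threshold, 34 lost and 9 gained a call, and 8 changed sign, none of them a called value. With window medians of neighbouring genes removed the members' median was -0.36, and values turned to 0.02 for ITGA7, 0.13 for ITGA10, 0.02 for TLN1 and 0.14 for FERMT1. On accessions tied to 1 probe, which drops genes named through pairs, 3 of 22 members and 11 of 63 other adhesion genes rose. Leaving out 1 array gave between 2 and 4 rises, between 9 and 12 falls and a median of -0.28 to -0.21 for the members, and between 14 and 16 rises and between 17 and 23 falls for the other adhesion genes. In those fits changes spanned -0.17 to 0.00 for FERMT1, -0.12 to 0.04 for ITGA10, -0.34 to 0.05 for ITGB3 and -0.39 to 0.04 for ITGA7. Where a fit left 1 array in a group, that array was assumed to vary like the others. With the replicate number as a block, 6 members rose and 13 fell with a median of -0.22, and besides PARVA no member's call changed. Without the detection filter 6 of 33 members rose and 11 fell, since FERMT2, LAMB2 and PARVA were lost. Of the alternatives with all arrays, ITGA3 missed the threshold only without the filter and with the block. The share of all genes called lay between 25.3% and 60.3%. Probes at or near background limit the values of LAMA4, LAMA2, TNS4, COL17A1, CDH1, KRT18 and GATA3. The measured change of LAMA4, -3.51, was between -2.42 and -2.34 under the other background and intensity settings. Changes of LAMA1 and ITGB4 were also smaller under these settings, at -1.75 to -1.64 and -1.56 to -1.48.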
